A study of Homo sapiens with 6 samples.

Results

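The genes of the HIF oxygen-sensing machinery were examined in K562 cells, an established human erythroleukaemia line, that depend on either wild-type EP400 or an EP400 unable to hold TRRAP. The set was a fixed list of 10 gene symbols (HIF1A, EPAS1, ARNT, ARNT2, EGLN1, EGLN2, EGLN3, HIF1AN, VHL and VEGFA). All 10 were found among the 60609 genes of the count files, each under 1 gene ID, and all 10 were among the 19114 genes tested. EP400 is the ATPase and scaffold subunit of the TIP60 complex, which acetylates chromatin and exchanges H2A.Z, and TRRAP is the subunit that contacts transcription factors. Every library came from cells with the endogenous EP400 gene fused homozygously to a dTAG degron and treated with 500 nM dTAGV-1, the degrader of the tagged protein, for 24 h. The 3 libraries called WT carried exogenous wild-type EP400 at the AAVS1 locus, and the 3 called Delta-TRRAP carried exogenous EP400 lacking the SANT and HD domains. Each group was grown from 1 clone, so clone and genotype cannot be told apart, and p-values measure only the spread between libraries of 1 clone.

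HIF is a dimer of an oxygen-labile alpha subunit and a stable beta subunit that binds hypoxia response elements, short DNA sites with the core ACGTG or GCGTG. In oxygenated cells the EGLN prolyl hydroxylases modify the alpha subunit, VHL binds the hydroxylated form and directs it to the proteasome, and the asparaginyl hydroxylase HIF1AN blocks its coactivator contact. When oxygen falls the alpha subunit persists, and genes of glycolysis, angiogenesis and red cell production are induced, among them VEGFA, EGLN1 and EGLN3 themselves. Most of this control acts on protein, which RNA counts do not measure. The labels do not give the oxygen level of the cultures.

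The core of the hypoxia response element was looked for in the 250 bases before the RefSeq start site (GRCh38.p14), which was given for 7 members and not for ARNT2, VHL and VEGFA. ACGTG stood there on either strand in 2 members, EGLN1 and EGLN2, and GCGTG in 2 others, HIF1A and EPAS1, while ARNT, EGLN3 and HIF1AN held neither. Among all 35116 promoters listed, 18.5% held ACGTG and 32.2% held GCGTG in the same window. These shares are per start site, whereas a member was counted if any of its listed start sites matched. The 4 matches are given with 30 bases each, on the strand of the gene and with the core in capitals, because they carry the core letters that HIF is known to bind. In EGLN2 the capitals span CACGTG, which reads ACGTG on both strands and was present in 6.34% of promoters.
EGLN1, chr1:231422288-231422317, minus strand: ccgcggggccgtggtgtACGTGcagagcgc
EGLN2, chr19:40799129-40799158, plus strand: cgcggggcgcggtCACGTGcccaccgggcg
HIF1A, chr14:61695296-61695325, plus strand: ttggctgagagcgGCGTGggctggggtggg
EPAS1, chr2:46297277-46297306, plus strand: ggggcctgccggcGCGTGcccgcccacaca
The match began 13 bases before the start site in EGLN1, 49 in EGLN2, 204 in HIF1A and 117 in EPAS1. HIF1A and EGLN2 each had a second listed start site whose window held neither core. A match is a description of the letters and does not show that HIF binds there.

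The libraries held 35076835 to 42616061 counts in genes. Libraries of 1 group correlated at 0.993 to 0.994 (Pearson's r of log2 of the normalized count plus 1 over genes), and those of different groups at 0.941 to 0.943. All 14 erythroid marker genes examined had a mean normalized count of at least 5 in both groups, with summed counts from 37038 to 40089 in WT and from 70513 to 78578 in Delta-TRRAP. Of 12 fibroblast markers 3 reached that mean in WT and 8 in Delta-TRRAP, with summed counts of 1353 to 1513 and 1748 to 2038 (PDGFRA and LUM were at 0 in all libraries). Of 8 endothelial markers 2 and 4 did, with sums of 689 to 699 and 414 to 483, and of 8 lymphoid and myeloid markers 5 did in each group, with sums of 8150 to 8924 and 925 to 985 (MS4A1 was at 0). The endothelial sums and the lymphoid and myeloid sums were nearly all 1 gene each, PECAM1 at 679.7 and 397 and LYZ at 8529 and 872 normalized counts, and did not stand for their lists: TEK went from 2.31 to 33.7, MPO from 0.322 to 19.2 and CD3E from 17.2 to 18.6. The fibroblast sums were mostly COL6A3, which went from 1372 to 935.1 mean normalized counts, and COL1A2, which went from 1.63 to 867.9. COL6A3 fell while COL1A2 rose, so the fibroblast sum did not stand for its list. The erythroid sum did not stand for its list either. At an edgeR adjusted p of 0.01, 8 of the 14 genes were higher and 3 were lower, against 29.6% and 28.9% of all genes tested. The lower genes were GATA1, HBG1 and TFR2, at -0.21, -0.43 and -0.87 on the log2 scale. ALAS2 went from 1252 to 16508, HBZ from 1451 to 10584.5 and HBA2 from 569 to 5820 mean normalized counts. The part of these shifts in the results below was not tested. In bulk RNA, fewer cells of a type and less RNA per cell cannot be told apart. EP400, the tagged gene, had normalized counts of 4951, 4924 and 5425 in WT and 5515, 6694 and 4350.1 in Delta-TRRAP. The log2 fold change, 0.11 ± 0.11 (SE), had an edgeR adjusted p of 0.354. It was -0.047 without Delta-TRRAP replicate 2 and 0.26, with an edgeR adjusted p of 0.00317, without Delta-TRRAP replicate 3. The count adds the tagged locus and the transgene, so it does not check which EP400 protein the cells make.

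In the comparison of Delta-TRRAP with WT, which asks how steady-state RNA depends on the tether between EP400 and TRRAP, 5 members were higher and 2 were lower at an adjusted p of 0.01. HIF1A, EPAS1, ARNT2, EGLN3 and HIF1AN were higher and VHL and VEGFA were lower, while ARNT, EGLN1 and EGLN2 did not pass. Of all genes tested, 58.6% passed the same threshold, 29.6% as higher and 28.9% as lower, so a share of 70.0% among 10 members lies near the background. ARNT2 was the single member that also reached a fold change of 2, a rule that 22.5% of all genes met. In its own range of counts, from 5 to 100, 36.8% of genes met that rule. With a mean of 0.342 in WT, ARNT2 was tested only through its counts in Delta-TRRAP and could hardly have been lower. The median log2 fold change of the members was 0.33, against 0.01 for all genes tested. Ranges of the groups were separate for 7 of the 10 members, and for 71.1% of all genes. Normalized counts are counts divided by the library size after TMM scaling, and adjusted p-values here and below come from edgeR's quasi-likelihood test, adjusted by Benjamini and Hochberg over the 19114 genes.

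**Figure D1:**
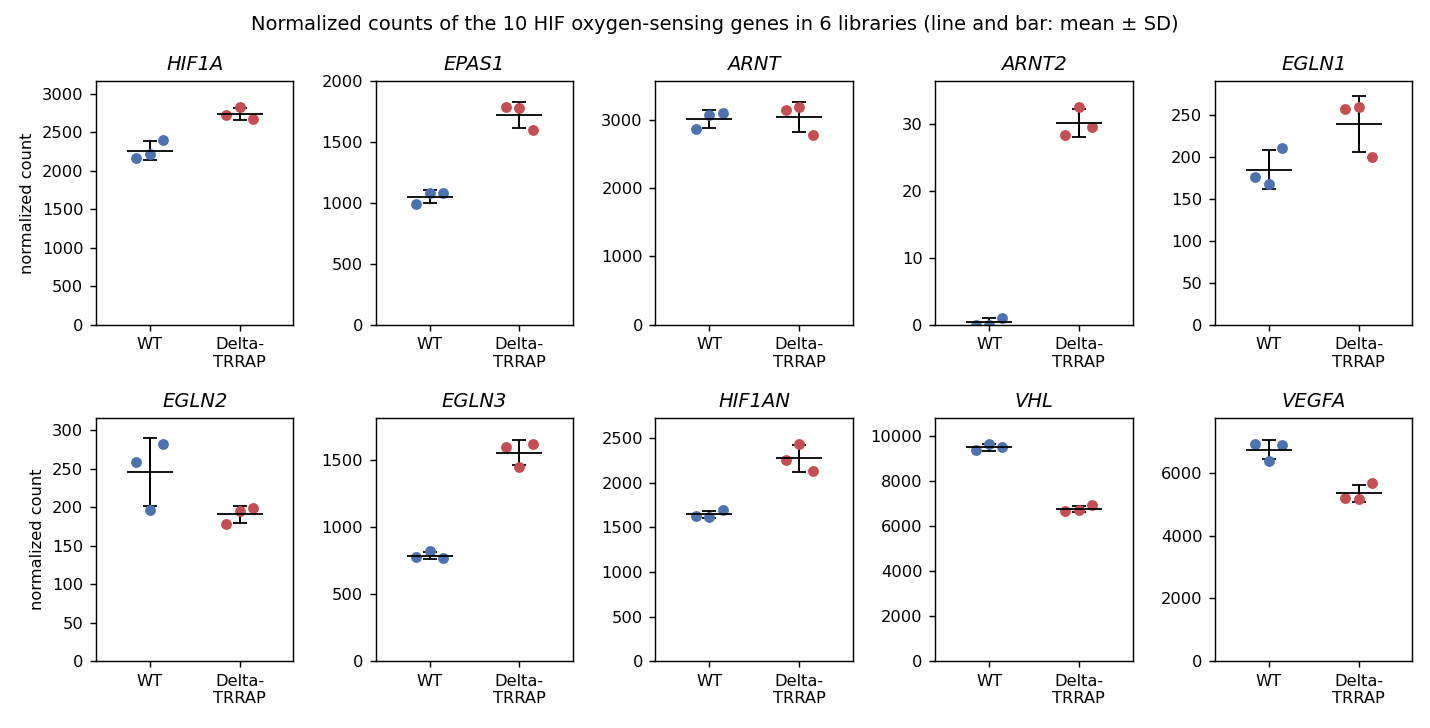
Normalized counts (vertical axis, starting at 0 and scaled for each gene) of the 10 members in the 3 WT libraries (blue) and the 3 Delta-TRRAP libraries (red), with a line and bar for the mean and SD. The groups are apart for HIF1A, EPAS1, ARNT2, EGLN3, HIF1AN, VHL and VEGFA, and overlap for ARNT, EGLN1 and EGLN2.

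HIF1A and EPAS1, the alpha subunits among the members, were both higher in Delta-TRRAP. HIF1A (ENSG00000100644.17, chromosome 14, 61695513 to 61748259), the alpha subunit found in most cell types, had normalized counts of 2167, 2220 and 2396 in WT and 2722, 2826 and 2669 in Delta-TRRAP. The lowest Delta-TRRAP library lay above the highest WT library, and the means were 2261 ± 119.8 and 2739 ± 79.9 (SD, n = 3 each). The difference was a 1.21-fold rise, or 0.28 ± 0.05 (SE) on the log2 scale (edgeR adjusted p = 0.00027). Changes at least that large were made by 54.1% of the 6072 genes whose mean normalized count lay between 1000 and 10000.

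EPAS1 (ENSG00000116016.14, chromosome 2, 46293667 to 46386697) encodes HIF-2 alpha, the alpha subunit linked to erythropoietin control. Its normalized counts were 992, 1078 and 1084 in WT and 1786, 1779 and 1602 in Delta-TRRAP. The groups were far apart relative to their spread, with means of 1051 ± 51.8 and 1722 ± 104 (SD, n = 3 each). EPAS1 rose 1.64-fold, or 0.71 ± 0.06 (SE) on the log2 scale (edgeR adjusted p = 4.86e-08). A change of this size was reached by 15.4% of genes in the same range of counts.

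The beta subunits differed from one another. ARNT (ENSG00000143437.21, chromosome 1, 150809713 to 150876708), the general dimer partner of the alpha subunits, had normalized counts of 2859, 3076 and 3099.9 in WT and 3147, 3186 and 2782 in Delta-TRRAP. The groups overlapped. Its log2 fold change was 0.01 ± 0.06 (SE), with a 95% interval of -0.11 to 0.14 and an edgeR adjusted p of 0.857, and its sign turned when single libraries were left out. Its value was -0.037 without WT replicate 1, -0.013 without Delta-TRRAP replicate 1 and -0.022 without Delta-TRRAP replicate 2.

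ARNT2 (ENSG00000172379.21, chromosome 15, 80404350 to 80597933), a paralogue best known from the brain, was nearly silent in WT. It had raw counts of 0, 0 and 1 in the WT libraries and 29, 34 and 28 in the Delta-TRRAP libraries. The ratio of the summed counts after scaling was 90.1, with an exact 95% interval of 15.8 to 3597 that covers counting error only. The edgeR adjusted p was 1.29e-07. The fitted log2 fold change of 6.04 depends on the prior count added to a group near 0, and it was 7.92 without WT replicate 3, the library with the single count. Even in Delta-TRRAP the level was small beside that of ARNT, at 0.390 ± 0.037 against 47.2 ± 5.15 TPM (SD, n = 3 each), where TPM is counts per base of merged exon scaled to the same total in every library. By the distance between centred log2 values of the normalized count plus 1 over the 6 libraries, the nearest genes were PLA2G4A (0.466), RSAD2 (0.626) and LYPLAL1-DT (0.712). The added 1 shrinks the difference of ARNT2, and the log2 fold changes of these genes, 4.51, 4.74 and 4.37, lay below its fitted value. PLA2G4A, which encodes a cytosolic phospholipase A2, had mean normalized counts of 25.5 ± 6.50 in WT and 581 ± 19.4 in Delta-TRRAP.

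**Figure D2:**
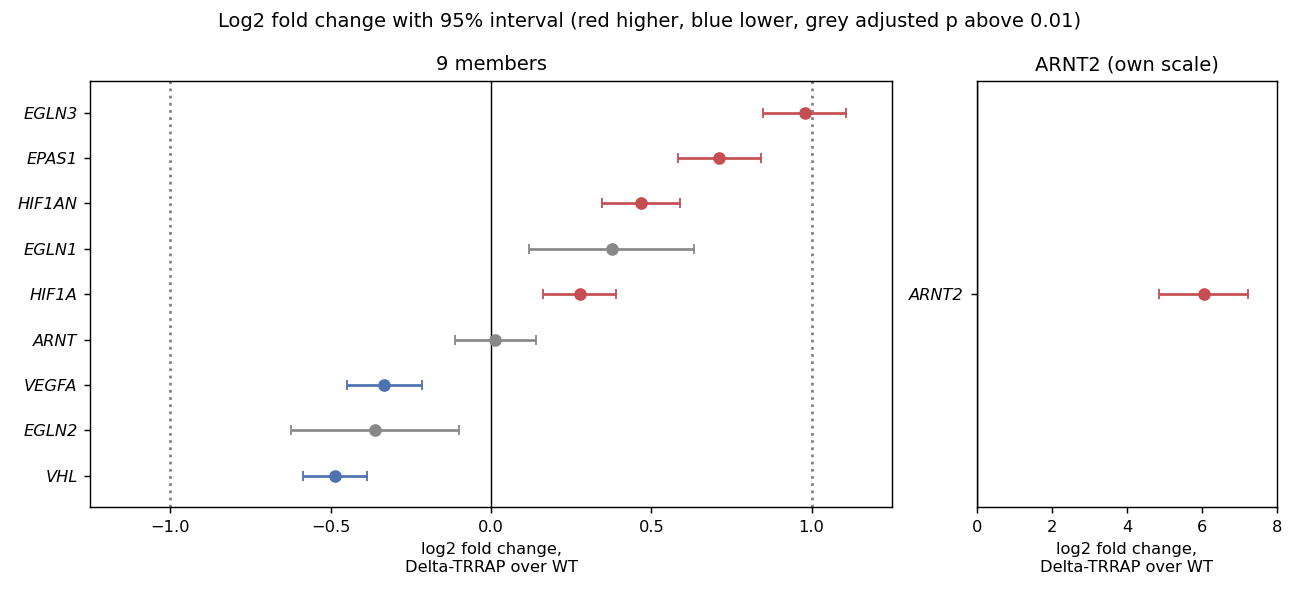
Log2 fold change of Delta-TRRAP over WT (horizontal axis) with its 95% interval for 9 members on the left and ARNT2, on its own scale, on the right; dotted lines mark a fold change of 2. EGLN3 lies nearest the upper line at 0.98, with an interval of 0.85 to 1.11. The intervals of VHL, VEGFA and EGLN2 lie below 0, though EGLN2 did not pass the adjusted p.

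Among the prolyl hydroxylases the clear difference was in EGLN3. EGLN3 (ENSG00000129521.14, chromosome 14, 33924227 to 34462774), the hypoxia-inducible enzyme PHD3, had normalized counts of 777, 822 and 768 in WT and 1594, 1448 and 1621 in Delta-TRRAP. Every Delta-TRRAP library lay well above every WT library. The means were 789 ± 29.0 and 1554 ± 93.3 (SD, n = 3 each), a 1.97-fold rise of 0.98 ± 0.06 (SE) on the log2 scale (edgeR adjusted p = 1.33e-09). It stood just under the fold change of 2, which it passed without Delta-TRRAP replicate 2 (1.03). Of the 6072 genes with 1000 to 10000 normalized counts, 6.87% changed by at least as much.

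EGLN1 (ENSG00000135766.9, chromosome 1, 231363751 to 231422287) encodes PHD2, the main oxygen sensor of most cells. Its normalized counts were 176, 168 and 211 in WT and 258, 259.8 and 201 in Delta-TRRAP. Delta-TRRAP replicate 3 lay below the highest WT library, so the groups overlapped. On the log2 scale the difference was 0.38 ± 0.12 (SE), with a 95% interval of 0.12 to 0.63 and an edgeR adjusted p of 0.012, above the threshold of 0.01. Without Delta-TRRAP replicate 3 it was 0.49 with an edgeR adjusted p of 0.000866, and without WT replicate 3 it was 0.47 with 0.00552. Leaving out any of the other 4 libraries gave 0.30 to 0.33, with edgeR adjusted p-values of 0.0368 to 0.0727.

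EGLN2 (ENSG00000269858.6, chromosome 19, 40798996 to 40808434) encodes PHD1, a mostly nuclear enzyme. Its normalized counts were 258, 197 and 282 in WT and 178, 196 and 199 in Delta-TRRAP. The lowest WT library lay within the Delta-TRRAP range. The log2 fold change was -0.36 ± 0.12 (SE), with a 95% interval of -0.62 to -0.10 and an edgeR adjusted p of 0.0162, and without WT replicate 2 it was -0.51 with an edgeR adjusted p of 0.000852. Leaving out any of the other 5 libraries gave -0.39 to -0.27, with edgeR adjusted p-values of 0.0157 to 0.0763. Within 5 Mb of EGLN2, 162 of the 262 genes tested lay below 0, and their median log2 fold change was -0.27.

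The low counts of EGLN1 and EGLN2 are also limited by how reads were assigned. Reads that overlapped more than 1 gene on a strand were not counted, and AL445524.2 shares 3004 exon bases with EGLN1, while RAB4B-EGLN2 shares 2012 and AC008537.1 shares 119 with EGLN2. These partners had 1, 0 and 0 counts over all 6 libraries. Only 44.2% of the merged exon bases of EGLN1 and 69.4% of those of EGLN2 belong to no other gene, against 97.1% for HIF1A, where AL137129.1 shares 148 bases, and at least 99.9871% for the others. RNU6-1309P lies within ARNT, MIR5572 within ARNT2 and AL356806.1 and SPTSSA within EGLN3 on the same strand, sharing 0 or 1 exon bases. The comparison between groups is made on the same bases in each library, but the level of EGLN1 and EGLN2 relative to other genes may be understated. The shared bases were taken from GENCODE 44, and may differ in the earlier release used for counting.

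The asparaginyl hydroxylase was higher as well. HIF1AN (ENSG00000166135.14, chromosome 10, 100529072 to 100559998), also called FIH, had normalized counts of 1628, 1614 and 1696 in WT and 2258, 2436 and 2134 in Delta-TRRAP. The groups did not overlap. The means were 1646 ± 43.9 and 2276 ± 152 (SD, n = 3 each), a 1.38-fold rise of 0.47 ± 0.06 (SE) on the log2 scale (edgeR adjusted p = 2.69e-06).

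VHL, the receptor of the ligase that removes hydroxylated alpha subunits, was lower. VHL (ENSG00000134086.7, chromosome 3, 10141778 to 10153667) had normalized counts of 9366, 9661 and 9499.9 in WT and 6679.7, 6737 and 6939 in Delta-TRRAP. The spread within each group was small and the groups were far apart, with means of 9509 ± 147 and 6785 ± 136 (SD, n = 3 each). VHL fell by 28.6%, or -0.49 ± 0.05 (SE) on the log2 scale (edgeR adjusted p = 2.26e-07).

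VEGFA, the member that serves as a target gene and encodes the main angiogenic growth factor, was lower too. VEGFA (ENSG00000112715.22, chromosome 6, 43770184 to 43786487) had normalized counts of 6914, 6371 and 6884 in WT and 5177, 5174 and 5663 in Delta-TRRAP. The lowest WT library lay above the highest Delta-TRRAP library. The means were 6723 ± 305 and 5338 ± 281 (SD, n = 3 each), and VEGFA fell by 20.6%, or -0.33 ± 0.05 (SE) on the log2 scale (edgeR adjusted p = 6.41e-05). VEGFA and EGLN3, which are both induced by HIF in many cells, thus lay on opposite sides of 0.

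When counts were scaled by library size alone, the median log2 fold change of all genes moved from 0.01 to 0.17, and each member moved up with it. HIF1A was then at 0.43, EPAS1 at 0.87, HIF1AN at 0.63 and EGLN3 at 1.13, which passed the fold change of 2, while VHL was at -0.33 and VEGFA at -0.18. EGLN2 was at -0.21, with an edgeR adjusted p of 0.15. The 7 members that passed the adjusted p kept their direction and their side of the threshold under that scaling, and EGLN1 passed as well. Delta-TRRAP replicate 3 was the lowest of its group for 5 of the 10 members (HIF1A, EPAS1, ARNT, EGLN1 and HIF1AN).

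Compared per length, the members spanned a wide range. VHL had the highest level, at 181 ± 4.62 TPM in WT and 136 ± 3.05 TPM in Delta-TRRAP (SD, n = 3 each). In WT it was followed by ARNT at 44.5 ± 2.48, VEGFA at 44.3 ± 1.88 and HIF1A at 41.8 ± 2.64 TPM, whose libraries overlapped. Below them came EPAS1 at 13.7 ± 0.835, HIF1AN at 11.3 ± 0.389 and EGLN3 at 10.2 ± 0.417 TPM, each apart from the next. EGLN2 at 3.56 ± 0.640 and EGLN1 at 3.28 ± 0.433 TPM overlapped, and ARNT2 was last at 0.00425 ± 0.00735 TPM. In Delta-TRRAP the order was VHL, HIF1A, ARNT, VEGFA, EPAS1, EGLN3, HIF1AN, EGLN1, EGLN2 and ARNT2. There HIF1A at 53.2 ± 3.47 TPM overlapped with ARNT, and EPAS1 at 23.7 ± 2.26 overlapped with EGLN3 at 21.1 ± 0.799 TPM, and the other neighbours in the order were apart. With the length taken as the exon bases that no other gene shares, EGLN1 was at 7.08 ± 0.931 and EGLN2 at 4.89 ± 0.870 TPM in WT. EGLN3 was at 19.2 TPM in WT when the longest transcript was used as its length, since its merged exons are 7363 bases and its longest transcript 2849.

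Shares within a family do not depend on how libraries are scaled. Of the per-length counts of HIF1A and EPAS1 together, EPAS1 took 24.4%, 25.5% and 24.2% in the WT libraries and 31.7%, 30.8% and 29.8% in the Delta-TRRAP libraries. HIF1A therefore remained more abundant than EPAS1 in all 6 libraries, and the share of EPAS1 was larger by 6.01 percentage points in Delta-TRRAP. EGLN3 took 59.4%, 64.6% and 55.9% of the 3 prolyl hydroxylases in WT and 74.3%, 71.6% and 76.5% in Delta-TRRAP, a difference of 14.1 points without overlap. EGLN2 went the other way, from 20.8% ± 3.06 to 10.2% ± 0.820, and EGLN1 from 19.2% ± 1.64 to 15.7% ± 2.40 (SD, n = 3 each). The share of EGLN1 was smaller although its own log2 fold change was 0.38, with an edgeR adjusted p of 0.012. With unshared exon bases as the length, EGLN3 still led, at 45.0% ± 4.34 in WT and 59.7% ± 3.44 in Delta-TRRAP (SD, n = 3 each). EGLN1 then took 32.5% and 28.5%, and EGLN2 22.5% and 11.8%, so the size of the lead depends on the length used. ARNT2 took 0.0092% ± 0.0159 of the beta subunits in WT and 0.822% ± 0.0688 in Delta-TRRAP. Each of these differences had a two-sided exact permutation p of 0.1, the smallest that 3 libraries against 3 allow.

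**Figure D3:**
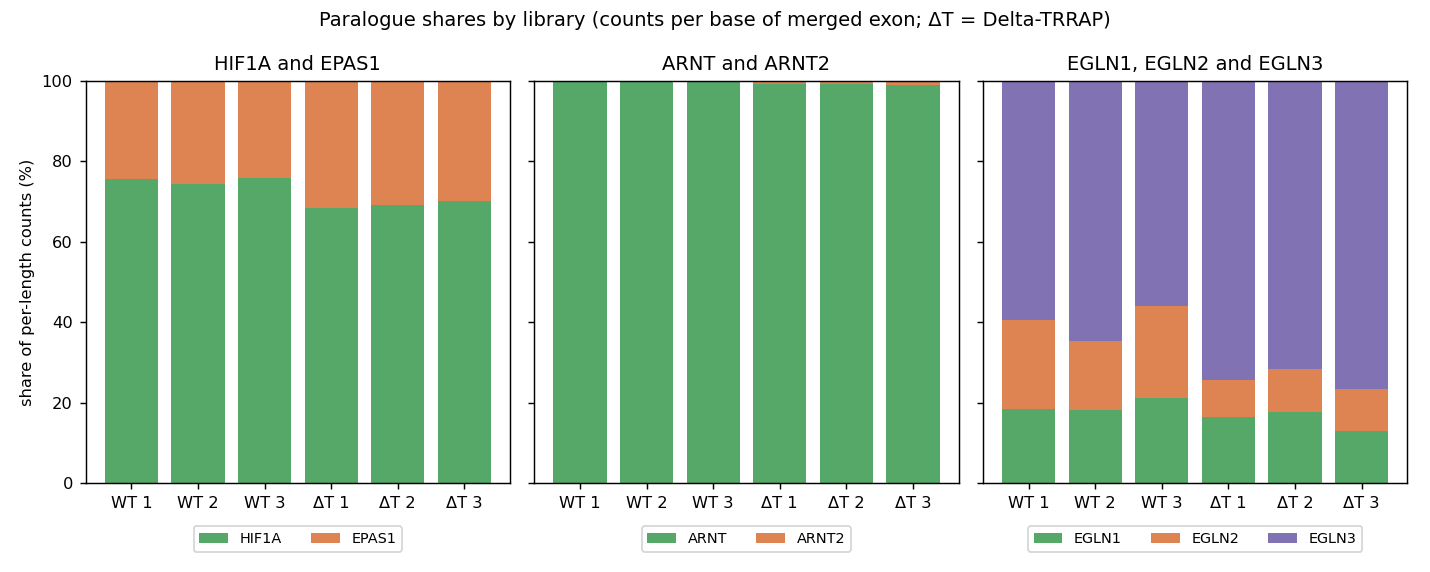
Share (%) of each paralogue in the per-length counts of its family, by library, for the alpha subunits, the beta subunits and the prolyl hydroxylases; bars add up to 100%. EPAS1 rises from about 24.7% on average in WT to 30.7% in Delta-TRRAP and EGLN3 from 59.98% to 74.1%, while ARNT2 is barely visible at 0.822%.

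The members were set beside their chromosomal neighbours, because clones can differ over whole stretches of a chromosome. EGLN2 was the member whose surroundings were shifted most, as given above, and its own value lay inside the quartiles of its neighbours (-0.66 to 0.36). EGLN3 at 0.98 lay above the quartiles of its 49 neighbours (-0.47 to 0.32), whose median was -0.01. EPAS1 lay just above the quartiles of its 47 neighbours (-0.21 to 0.69), with a median of 0.20. VHL at -0.49 lay below the quartiles of its 77 neighbours (-0.20 to 0.77), with a median of 0.03. The medians around HIF1A (0.04), HIF1AN (0.14), VEGFA (0.06), ARNT (0.16), EGLN1 (0.01) and ARNT2 (0.02) were small. HIF1A, HIF1AN, VEGFA, ARNT and EGLN1 lay inside the quartiles of their neighbours (for HIF1AN, -0.33 to 0.62, and for VEGFA, -0.40 to 0.54). The part of a chromosomal shift in these results was not tested.

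**Figure D4:**
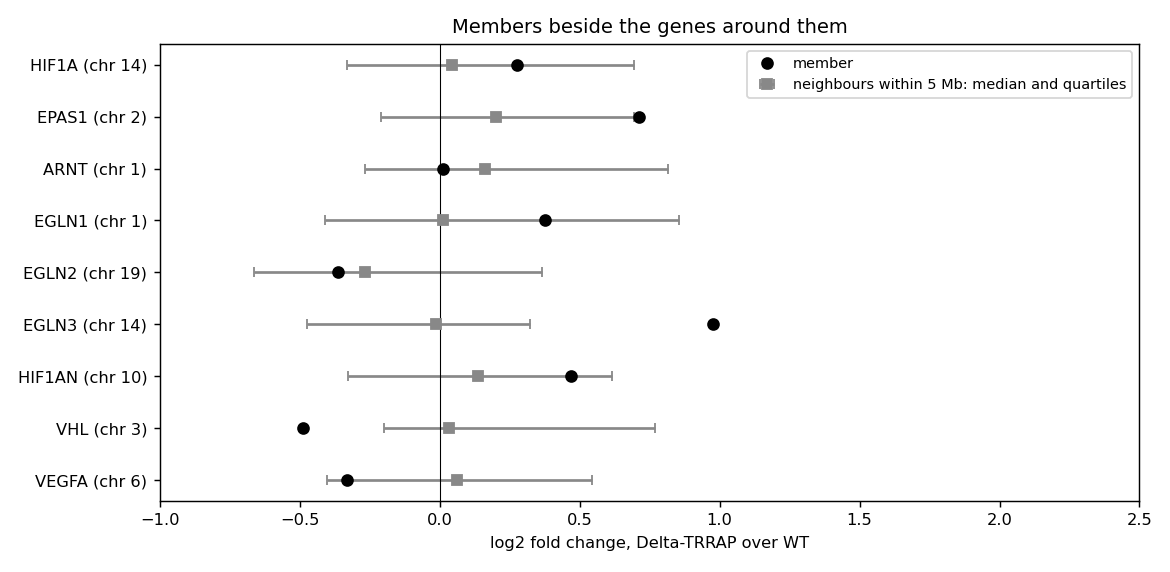
Log2 fold change of 9 members (black points; ARNT2 is off this scale) beside the median and quartiles of the genes tested within 5 Mb (grey squares and bars). EGLN3 and EPAS1 lie above and VHL below the quartiles of their neighbours, while EGLN2 lies near its neighbours' median of -0.27.

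An antisense gene at HIF1A, singled out after its values were seen, also differed. HIF1A-AS3, a long noncoding RNA on the opposite strand, had raw counts of 5, 7 and 5 in WT and 30, 22 and 21 in Delta-TRRAP. HIF1A-AS3 rose by 2.06 ± 0.33 on the log2 scale (SE; edgeR adjusted p = 4.64e-05). The kit and the counting kept the strands apart, and these counts are small beside those of HIF1A itself. Antisense to ARNT2, AC016705.1 had raw counts of 0, 0 and 1 in WT and 6, 7 and 8 in Delta-TRRAP. EGLN3-AS1, antisense to EGLN3, had 0, 0 and 0 in WT and 6, 3 and 2 in Delta-TRRAP. The raw counts of NDUFB8 at HIF1AN, AC034193.1 at VHL and AL136131.3 at VEGFA overlapped between the groups.

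The other genes of the pathway were read from lists written from general knowledge. The partners of VHL in its ligase were all below 0. ELOB, CUL2 and RBX1 were lower, 3 of the 4 partners against 28.9% of all genes, at -0.31 ± 0.07, -0.16 ± 0.05 and -0.45 ± 0.08 (SE) on the log2 scale, with edgeR adjusted p-values of 0.00072, 0.00744 and 0.000115. ELOC was at -0.19 with an edgeR adjusted p of 0.0173. By library size scaling 1 of the 4 passed, and 2 did with RLE or upper quartile scaling, with DESeq2, with the replicate block and on leaving out WT replicate 1, WT replicate 2 or Delta-TRRAP replicate 1. None of the 4 reached a fold change of 2.

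Among 18 other regulators and coactivators of HIF, 16 were tested, 3 passed as higher and 5 as lower, with a median log2 fold change of -0.02. ARNTL2 and ARNTL, paralogues of ARNT that serve the circadian clock, rose by 1.63 ± 0.08 and 1.24 ± 0.15 (SE) on the log2 scale, with edgeR adjusted p-values of 9.32e-11 and 2.01e-06. ARNTL2 went from 249 ± 22.4 to 770.1 ± 43.8 normalized counts (SD, n = 3 each). In the other direction AJUBA, a scaffold that brings EGLN and VHL together, was at -1.35 ± 0.09, SENP1, a SUMO protease that acts on HIF1A, at -0.86 ± 0.06, and the chaperone HSP90AA1 at -0.61 ± 0.05 (SE), with edgeR adjusted p-values of 2.97e-09, 2.29e-09 and 9.60e-08. The 116 genes tested within 5 Mb of SENP1 had a median of -0.34. The coactivator EP300 was at -0.02 and CREBBP at -0.26, with edgeR adjusted p-values of 0.895 and 0.0353.

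Genes that HIF induces in other settings did not move one way. Of 58 that were tested in both lists, 17 were higher and 21 lower at an adjusted p of 0.01, or 65.5% against 58.6% of all genes, with a median log2 fold change of -0.02. At a fold change of 2, 8 were called higher and 3 lower, against 16.2% and 6.34% of all genes. Of the genes called, ADM (mean of 1.35 in WT) was tested only through its counts in Delta-TRRAP. PLOD2 (mean of 4.19 in Delta-TRRAP) was tested only through its counts in WT. In glycolysis and glucose uptake 5 of 24 were higher and 11 lower, against 29.6% and 28.9% of all genes. The glucose transporters parted: SLC2A1 rose from 7313 ± 211 to 21431 ± 395 normalized counts and SLC2A3 fell from 10729.9 ± 441 to 5251 ± 121 (SD, n = 3 each), with edgeR adjusted p-values of 7.01e-13 and 9.73e-11. ALDOC, an aldolase, and HK1, a hexokinase, rose by 0.88 ± 0.05 and 0.74 ± 0.06 (SE) on the log2 scale. PFKFB3, which makes an activator of phosphofructokinase, and PKM, a pyruvate kinase, were at -0.70 ± 0.06 and -0.65 ± 0.05 (SE). The edgeR adjusted p-values of these 4 genes were 5.42e-10, 2.09e-08, 3.67e-08 and 2.31e-08.

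Among HIF-regulated genes of other roles, 34 of 44 were tested. Of these 12 were higher and 10 lower, against 29.6% and 28.9% of all genes. TMEM45A went from 7.74 ± 5.90 to 128 ± 12.3 and NDRG1, a stress-response gene, from 63.8 ± 4.90 to 661 ± 39.5 normalized counts (SD, n = 3 each). Their edgeR adjusted p-values were 3.43e-09 and 2.21e-13. In the other direction the transferrin receptor gene TFRC was at -1.12 ± 0.05, the mTOR inhibitor gene DDIT4 at -0.88 ± 0.06 and the oxidase gene ERO1A at -0.78 ± 0.05 (SE) on the log2 scale, with edgeR adjusted p-values of 6.25e-11, 2.39e-09 and 9.23e-10. TFRC lies on distal 3q, where the 66 genes tested within 5 Mb had a median of -0.60. Erythropoietin (EPO), which is induced through EPAS1 in the kidney, had mean normalized counts of 0.684 in WT and 0.652 in Delta-TRRAP, under the minimum for testing.

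The genes for VEGFA receptors differed among themselves. FLT1, its high-affinity receptor, went from 2.67 ± 0.545 to 202 ± 8.80 normalized counts (SD, n = 3 each), a log2 fold change of 6.17 ± 0.22 (SE; edgeR adjusted p = 2.59e-12). FLT4, a receptor for other VEGF ligands, and the co-receptor NRP2 also passed as higher. That made 3 of the 6 genes tested among 9 VEGF ligands and receptors, against 29.6% of all genes, but FLT1 and NRP2 (0.684 in WT) were tested only through their counts in Delta-TRRAP and could hardly have been lower. NRP1, the other VEGFA co-receptor, had mean normalized counts of 28.5 ± 12.1 in WT and 35.6 ± 6.20 in the Delta-TRRAP libraries (SD, n = 3 each), with an edgeR adjusted p of 0.324. KDR, the main signalling receptor, had no counts in WT and a mean of 5.65 ± 0.728 in Delta-TRRAP, under the minimum for testing. The ligand VEGFB was at 0.08 with an edgeR adjusted p of 0.283. Of the 8 endothelial markers, TEK went from 2.31 to 33.7 normalized counts (edgeR adjusted p = 3.91e-07) and ERG from 0.684 to 6.04, untested. TEK too was tested only through its counts in Delta-TRRAP and could hardly have been lower. PECAM1 went from 679.7 to 397 (edgeR adjusted p = 1.22e-07). TIE1 was at 9.45 and 11.2, and CDH5, VWF, CLDN5 and EMCN were under a mean of 5 in both groups. Their part in the FLT1 and KDR values was not tested.

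**Figure D5:**
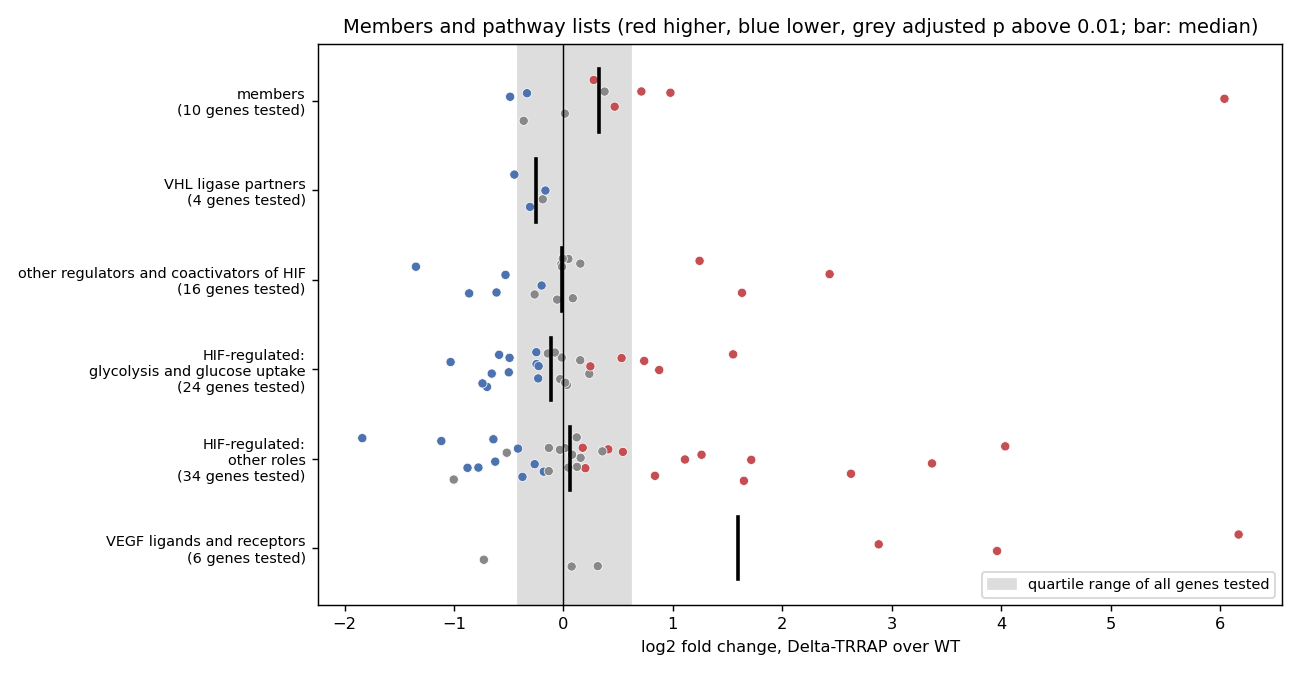
Log2 fold change of Delta-TRRAP over WT (horizontal axis) for the members and 5 pathway lists; red points were higher, blue points lower, grey points had an adjusted p above 0.01, black bars are list medians and the grey band holds the middle quartiles of all genes tested. The medians of the HIF-regulated lists (-0.11 for glycolysis and glucose uptake and 0.06 for other roles) lie near 0, and the VEGF list holds FLT1 at 6.17.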

How the data were processed

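Poly(A) RNA was made into stranded libraries and sequenced by the authors, who aligned uniquely mapping reads to hg38 with STAR and counted them per GENCODE gene with HTSeq 2.0.2, reverse-stranded and in union mode. The deposited counts, 1 file per library, were not normalized. Reads mapping to several places were discarded. The authors' table of size-factor-scaled values, which has 3 columns matching no labelled sample, and their table of means, log2 fold changes, errors and p-values for the comparison were not used.

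Sample titles gave the group and the replicate number. Counts were tested with edgeR 4.0.16 (R 4.3.3) by TMM scaling and the quasi-likelihood F test on group, for the 19114 genes whose normalized count averaged 5 or more. A gene passed at an adjusted p of 0.01 and was called at a fold change of 2 as well, the thresholds of the study, which used DESeq2. Standard errors were derived from the F statistic. SDs and shares were computed over 3 libraries a group. Lengths and positions came from GENCODE 44 on GRCh38, a later release than the authors', with 60340 of 60609 IDs matched. Beside the members and EP400, the text names, from each pathway list, the 3 largest rises and falls that passed with a mean of at least 50, genes that overlap members on the same strand, and the 3 genes (mean of at least 100) nearest in pattern to the member that changed most. A gene that this rule names among the rises is not reported here. Genes named outside that rule were chosen after their values were seen. The members and lists were chosen with earlier results of these data known. The fit was tested on simulated data. Alternatives were RLE, upper quartile and library size scaling, DESeq2 1.42.0, limma-voom 3.58.1, other filters, a fold change of 1.5, a replicate block, other lengths and windows, and leaving out each library.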

Additional observations from a re-analysis of the deposited data

How the results depend on the processing

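The 7 members that passed the adjusted p did so in the same direction in every alternative that tested them. ARNT2 alone was not tested at a minimum mean normalized count of 50. The number of members called at a fold change of 2 was 1, and it became 2 by library size scaling, 0 at a minimum of 50, 3 at a fold change of 1.5, and 1 to 2 when single libraries were left out. Over all genes the 4307 calls became 1969 (1147 higher) at a minimum of 50, since fewer genes were tested, and 6802 (2722 lower) at a fold change of 1.5. DESeq2 called 3983. At a minimum of 50, 1 of the VEGF ligands and receptors passed, and by library size scaling 1 of the VHL ligase partners did.

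EGLN1 passed with upper quartile scaling (0.38, edgeR adjusted p 0.00748), library size scaling (0.53, 0.00114) and no filter (0.38, 0.00131), and ranged from 0.30 to 0.49 without single libraries. EGLN2 passed with upper quartile scaling (-0.36, edgeR adjusted p 0.00889) and no filter (-0.36, 0.00186), and ranged from -0.51 to -0.27 without single libraries. ARNT ranged from -0.037 to 0.072 and EP400 from -0.047 to 0.26 on leaving out libraries. The causes were not tested.

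The difference in the ARNT2 share was 0.687 points with the longest transcript and 0.973 without division by length. In WT, the longest transcript gave 4.37 TPM for EGLN2, 19.2 for EGLN3, 8.81 for HIF1AN, 145 for VHL and 38.2 for VEGFA. Unshared exon bases, a length added after the data were seen, gave 7.08 for EGLN1, 4.89 for EGLN2, 9.73 for EGLN3, 10.8 for HIF1AN, 173 for VHL and 42.3 for VEGFA. Within 2 Mb the median log2 fold change of neighbours was -0.065 for HIF1A, 0.11 for EPAS1, 0.26 for ARNT, -0.097 for EGLN1, -0.33 for EGLN2, 0.19 for HIF1AN, 0.0023 for VHL and 0.019 for VEGFA.

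Same-numbered libraries did not deviate together (correlations of -0.029 to -0.0095). No shared shift was seen, but this cannot show whether such libraries were handled together. With the replicate block 4218 genes and 1 member were called, and 7 members passed the adjusted p. At this depth EGLN1 and EGLN2, with 168 to 282 normalized counts a library, had the widest intervals of any members but ARNT2.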
